A study of Mus musculus with 8 samples.

Results

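Transcripts of the mouse Fc gamma receptors and of the signalling pair that serves them were followed through 8 RNA libraries. The genes were Fcgr1, Fcgr2b, Fcgr3, Fcgr4, Fcer1g and Syk, taken by their symbols from the deposited count table, 6 of its 42454 rows. All 6 passed the filter on low counts that left 11081 genes for testing. The cells were RAW264.7, a mouse macrophage-like line grown from a virus-induced tumour and 1 line only, and the study asked how Tubuloside B, a plant phenylethanoid glycoside, acts on inflamed macrophages. There were 4 labelled groups of 2 libraries. LPS_IFNg_TubB received lipopolysaccharide (LPS, a bacterial cell wall component) at 10 ng/ml with interferon-gamma (IFN-γ) at 20 ng/ml for 24 h together with Tubuloside B, TubB received Tubuloside B, LPS_IFNg received the same stimulus without the compound, and mock received the solvent DMSO. The dose of Tubuloside B, and a time for TubB and mock, were not given in the sources used here.

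Fc gamma receptors bind the constant part of IgG antibodies and so let macrophages take up antibody-coated particles and react to immune complexes. In the mouse, the receptors encoded by Fcgr1, Fcgr3 and Fcgr4 are activating. They signal through the gamma chain encoded by Fcer1g, whose ITAM (a tyrosine motif phosphorylated by Src-family kinases) recruits the tyrosine kinase Syk. Fcgr2b encodes the inhibitory receptor, whose ITIM motif recruits phosphatases that oppose this signal, so the balance of the 2 kinds of receptor sets how a macrophage answers immune complexes. Fcgr1, the high-affinity receptor, is a classical IFN-γ-inducible gene.

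The libraries held 4767894 to 8413834 counts each, and the 6 genes together took 0.160% to 0.182% of them in the libraries labelled LPS_IFNg_TubB and TubB and 0.0844% to 0.0867% in those labelled LPS_IFNg and mock. The labels and the genes that the stimulus is known to induce did not match. Of 12 such genes, among them Nos2 and Irf1, edgeR called 12 higher in TubB than in mock, 12 higher in LPS_IFNg_TubB than in LPS_IFNg, and 0 between LPS_IFNg and mock. Of all genes tested, 26.3% were higher in the first comparison, 26.2% were higher in the second and 0% were called in the third. Every direction below is therefore a difference between libraries labelled so, and what the cells of a label received cannot be told from the label alone. The closest pairs of libraries joined different labels with the same replicate number, LPS_IFNg_TubB with TubB and LPS_IFNg with mock. The labels do not tell whether replicates are separate cultures. P-values therefore rest on the spread among these libraries, which may be technical. Of 8 macrophage markers, 7 had counts, and Mertk had 0 in every library. Their summed level was 9427 to 9649 CPM (counts scaled to a common library size with edgeR's TMM factors) in LPS_IFNg_TubB, 9106 to 9636 in TubB, 7906 to 8167 in LPS_IFNg and 7892 to 7928 in mock. Most of this sum came from Lyz2 and Cd14. Lyz2 was at 4722 CPM in LPS_IFNg_TubB, 4537 in TubB, 4599.9 in LPS_IFNg and 4477 in mock. Cd14 was at 2829 CPM in LPS_IFNg_TubB, 2903 in TubB, 1442 in LPS_IFNg and 1468 in mock. Of the 7 markers with counts, 4 were higher and 1 lower in TubB than in mock, beside 51.2% of all genes called. Csf1r was at 199.8 CPM in TubB and 461 in mock, and Adgre1 at 81.4 in TubB and 12.4 in mock.

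The promoters of 6 of the 6 genes were found in RefSeq tables of the build GRCm38.p6, the build of the counts, in 8 entries. The 2 entries each of Fcgr3 and Syk begin at starts inside the counted gene and not at its outermost start, so their matches concern those starts. The window searched was 250 bases before to 50 bases after the start. The 250 bases before the start are shown for 3 receptors, 2 that were higher and 1 that was lower in the libraries labelled TubB. Fcgr1 lies on the minus strand of chromosome 3 (chr3:96293970-96294219), Fcgr4 on the plus strand of chromosome 1 (chr1:171018676-171018925) and Fcgr2b on its minus strand (chr1:170976072-170976321). Capitals mark motif matches, and each sequence reads 5′ to 3′ along its gene's strand.
Fcgr1: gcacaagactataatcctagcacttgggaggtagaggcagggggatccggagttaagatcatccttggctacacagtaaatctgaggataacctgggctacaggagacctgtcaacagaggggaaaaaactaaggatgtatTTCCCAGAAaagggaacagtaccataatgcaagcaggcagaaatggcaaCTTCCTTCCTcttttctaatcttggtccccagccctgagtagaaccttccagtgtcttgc
Fcgr4: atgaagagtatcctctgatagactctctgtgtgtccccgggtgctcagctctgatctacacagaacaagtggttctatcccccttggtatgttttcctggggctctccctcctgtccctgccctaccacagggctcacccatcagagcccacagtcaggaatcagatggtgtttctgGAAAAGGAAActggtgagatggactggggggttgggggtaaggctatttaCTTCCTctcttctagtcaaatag
Fcgr2b: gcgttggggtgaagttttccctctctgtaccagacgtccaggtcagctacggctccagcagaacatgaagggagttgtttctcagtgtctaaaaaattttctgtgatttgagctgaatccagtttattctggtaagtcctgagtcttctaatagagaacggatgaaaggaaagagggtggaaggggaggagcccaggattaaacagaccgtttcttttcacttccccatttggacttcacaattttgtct
The first capitals in the Fcgr1 promoter, TTCCCAGAA, match the gamma-activated site TTCNNNGAA, an element of IFN-γ-inducible promoters, at -109 to -101 from the start. In Fcgr4 the first capitals, GAAAAGGAAA, match the core of an interferon-stimulated response element (GAAA, any 2 bases, GAAA), bound by interferon regulatory factors, at -73 to -64. The other capitals are the core AGGAAG, read on the opposite strand, of sites for PU.1, the myeloid factor encoded by Spi1. Fcgr1 holds 2 of these that overlap by 2 bases, and Fcgr4 holds 1. Fcgr3 and Fcer1g also held AGGAAG, but no match to the gamma-activated site or to the core of the interferon-stimulated response element. No match to these 3 motifs or to the TATA box TATAAA was found in the windows of Fcgr2b and Syk. The interferon elements were thus matched in Fcgr1 and Fcgr4 alone, while Fcgr3, Fcer1g and Syk were also higher in the libraries labelled TubB. All motifs were searched on both strands. Among all 32851 promoters of this length, 8.3% held TTCNNNGAA, 3.44% held that core, 35.4% held AGGAAG and 13.6% held TATAAA. A match is a description of the letters and not a measured binding site.

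Per kilobase of gene length, the order of the 6 transcripts differed between labels. Fcer1g was first in every group, with 883 ± 12.8 CPM per kb (SD, n = 2 here and below) in LPS_IFNg_TubB, 822 ± 32.0 in TubB, 584 ± 15.4 in LPS_IFNg and 583 ± 2.39 in mock. In TubB it was followed by Fcgr4 (170.3 ± 26.0), Syk (83.2 ± 10.6), Fcgr3 (48.2 ± 3.97), Fcgr2b (20.3 ± 3.38) and Fcgr1 (16.0 ± 0.938). LPS_IFNg_TubB had the same order, and the libraries of neighbours in it did not overlap in either group. In mock the second place was held by Fcgr2b (36.2 ± 0.322), followed by Syk (30.02 ± 0.592), Fcgr4 (11.8 ± 2.13), Fcgr3 (7.71 ± 1.46) and Fcgr1 (4.52 ± 0.299), again without overlap between neighbours. LPS_IFNg had the order of mock, and there the libraries of Fcgr4 (9.51 ± 0.780) and Fcgr3 (7.88 ± 1.68) overlapped. With the longest coding GENCODE transcripts as lengths, Fcer1g stayed first and Fcgr2b came last in LPS_IFNg_TubB and TubB (10.1 ± 2.12 and 8.85 ± 1.47 CPM per kb). In LPS_IFNg and mock Fcgr2b stood behind Syk and overlapped with Fcgr3, and Fcgr3 stood above Fcgr4 without overlap. The order of the genes therefore rests on the lengths used, and the differences of a gene between labels do not.

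**Figure D1:**
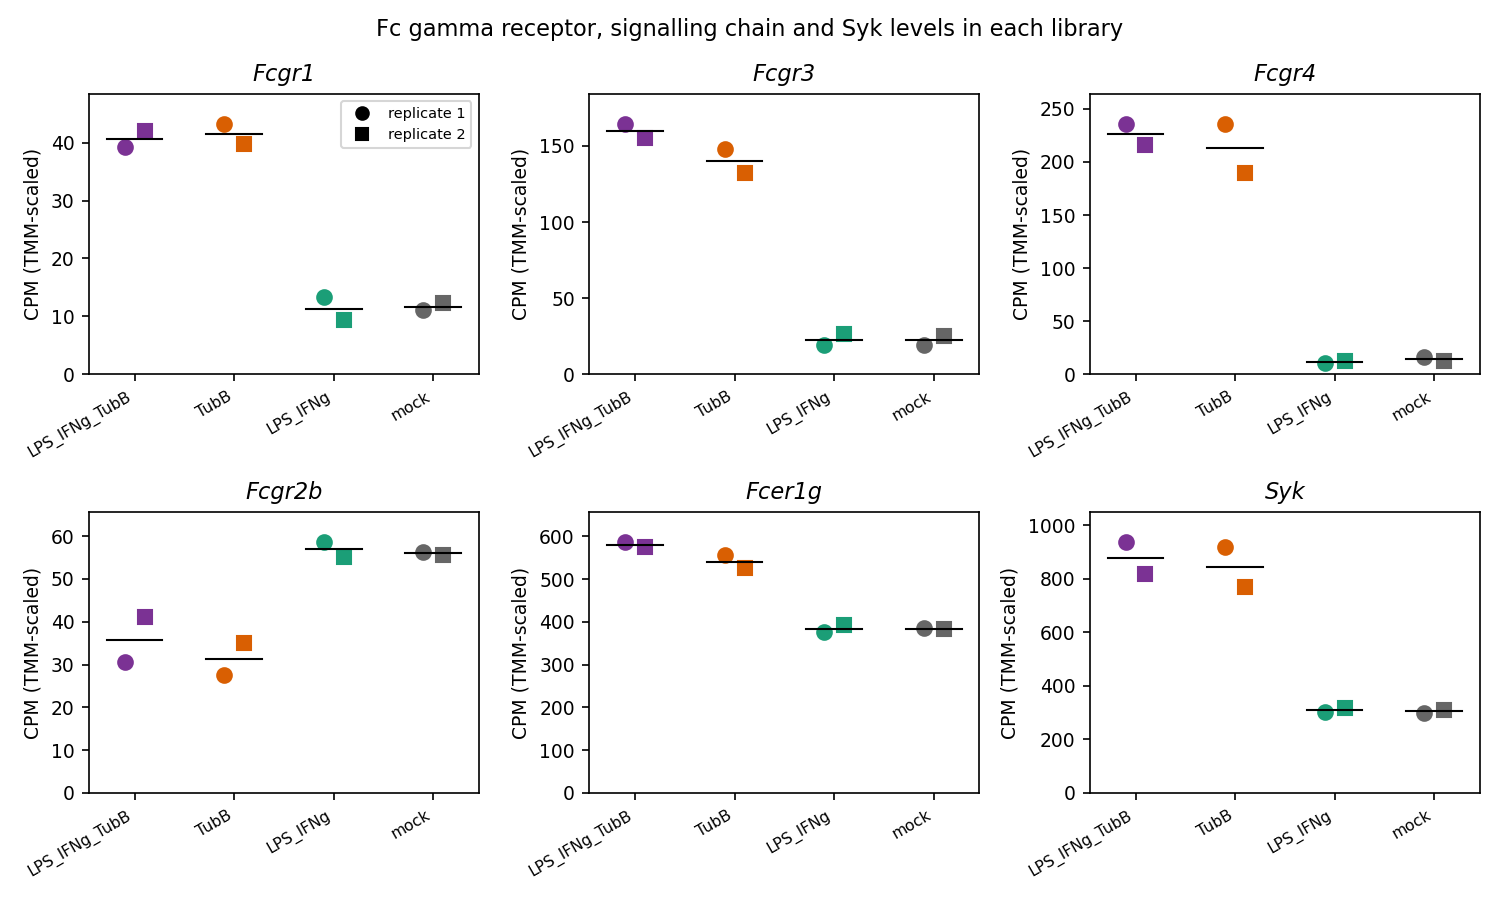
Level of each gene in every library, in TMM-scaled CPM on a linear axis from 0, with circles for replicate 1, squares for replicate 2 and a line at the group mean. The libraries labelled LPS_IFNg_TubB and TubB sit above those labelled LPS_IFNg and mock in 5 panels and below them in the panel of Fcgr2b.

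The comparison of TubB with mock asks what the compound does without the stimulus, as labelled. The 3 activating receptors, Fcer1g and Syk were higher in TubB and the inhibitory receptor Fcgr2b was lower. edgeR's quasi-likelihood test with Benjamini-Hochberg adjustment over 11081 genes called 6 of the 6 genes, 5 higher and 1 lower. It called 51.2% of all genes tested, 26.3% higher and 24.9% lower, so a call alone was common in this comparison. The 2 groups of libraries did not overlap for any of the 6, as for 76.2% of all genes. In LPS_IFNg_TubB against LPS_IFNg, which asks what the compound does under the stimulus, as labelled, again 5 of 6 were higher and 1 was lower, with 51.2% of all genes called, 26.2% higher and 25% lower. Again no gene of the 6 overlapped, as for 75.9% of all genes. These 2 comparisons share no library. In LPS_IFNg_TubB against mock, which shares libraries with both, 5 were higher and 1 lower, with 51.9% of all genes called, 26.6% higher and 25.3% lower. In bulk RNA, fewer cells of a type and less RNA per cell cannot be told apart.

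Fcgr4 encodes an activating receptor that binds IgG2a and IgG2b (chromosome 1, 171018926 to 171029761). It had 236 and 216 CPM in LPS_IFNg_TubB, 236 and 189.9 in TubB, 11.2 and 12.6 in LPS_IFNg, and 16.6 and 12.8 in mock. Both LPS_IFNg_TubB libraries and both TubB libraries stood far above all 4 others, with no overlap. The difference was 3.84 ± 0.13 on the log2 scale (SE; 14.3-fold, adjusted p = 1.50e-18) for TubB minus mock. For LPS_IFNg_TubB minus LPS_IFNg it was 4.24 ± 0.14 (18.96-fold, adjusted p = 6.61e-19). Of 11081 genes, 150 and 132 had a larger log2 difference in these comparisons.

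Fcgr3 encodes the low-affinity activating receptor (chromosome 1, 171051169 to 171065915). It had 165 and 155 CPM in LPS_IFNg_TubB, 148 and 132 in TubB, 19.4 and 26.3 in LPS_IFNg, and 19.4 and 25.4 in mock. The lowest TubB library was above the highest mock or LPS_IFNg library. Its log2 difference was 2.64 ± 0.13 for TubB minus mock (6.24-fold, adjusted p = 2.13e-15) and 2.80 ± 0.13 for LPS_IFNg_TubB minus LPS_IFNg (6.98-fold, adjusted p = 9.67e-16).

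Fcgr1, the high-affinity receptor gene, lies on chromosome 3 (96282909 to 96293969), apart from the others. It had 39.3 and 42.0 CPM in LPS_IFNg_TubB, 43.3 and 39.8 in TubB, 13.3 and 9.34 in LPS_IFNg, and 11.2 and 12.3 in mock. The groups separated as for the other activating receptors, with the smallest rise of the 3. TubB minus mock gave 1.82 ± 0.17 (3.53-fold, adjusted p = 5.41e-10) and LPS_IFNg_TubB minus LPS_IFNg 1.84 ± 0.18 (3.58-fold, adjusted p = 1.04e-09). It had the fewest counts of the 6 genes, down to 55 in 1 library.

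Fcgr2b, the inhibitory receptor, had 30.5 and 41.1 CPM in LPS_IFNg_TubB, 27.7 and 35.1 in TubB, 58.6 and 55.2 in LPS_IFNg, and 56.4 and 55.7 in mock (chromosome 1, 170960558 to 170976071). Here the 4 libraries labelled LPS_IFNg_TubB or TubB were the low ones, and they spread more than the 4 others. TubB minus mock was -0.81 ± 0.14 (1.76-fold lower, adjusted p = 1.54e-05) and LPS_IFNg_TubB minus LPS_IFNg was -0.65 ± 0.14 (1.57-fold lower, adjusted p = 0.000330). Without LPS_IFNg_TubB replicate 1 the second value was -0.46 and remained called.

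Fcer1g, the shared gamma chain (chromosome 1, 171229572 to 171234349), had 587 and 575 CPM in LPS_IFNg_TubB, 556 and 526 in TubB, 377 and 392 in LPS_IFNg, and 385 and 383 in mock. Its difference was small beside those of the receptors it serves, at 0.49 ± 0.07 for TubB minus mock (1.41-fold, adjusted p = 5.23e-07) and 0.59 ± 0.07 for LPS_IFNg_TubB minus LPS_IFNg (1.51-fold, adjusted p = 2.18e-08). Replicates lay close together, and the groups did not overlap.

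Syk, the kinase that docks on the phosphorylated gamma chain, lies on chromosome 13 (52582610 to 52648792). It had 937 and 818 CPM in LPS_IFNg_TubB, 919 and 768 in TubB, 301 and 318 in LPS_IFNg, and 300.2 and 309 in mock. The 2 sets of labels did not overlap. The difference was 1.47 ± 0.08 for TubB minus mock (2.77-fold, adjusted p = 8.59e-14) and 1.502 ± 0.0835 for LPS_IFNg_TubB minus LPS_IFNg (2.83-fold, adjusted p = 6.49e-14). In both LPS_IFNg_TubB and TubB, replicate 1 stood farther from mock than replicate 2 for all of the 6 genes but Fcgr1. On the first principal component of all genes, which held 83.6% of the variance, replicate 1 was likewise farther out, at 58.1 against 47.2 for replicate 2 of LPS_IFNg_TubB and at 57.9 against 43.4 for replicate 2 of TubB. The part of this in the results was not tested.

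**Figure D2:**
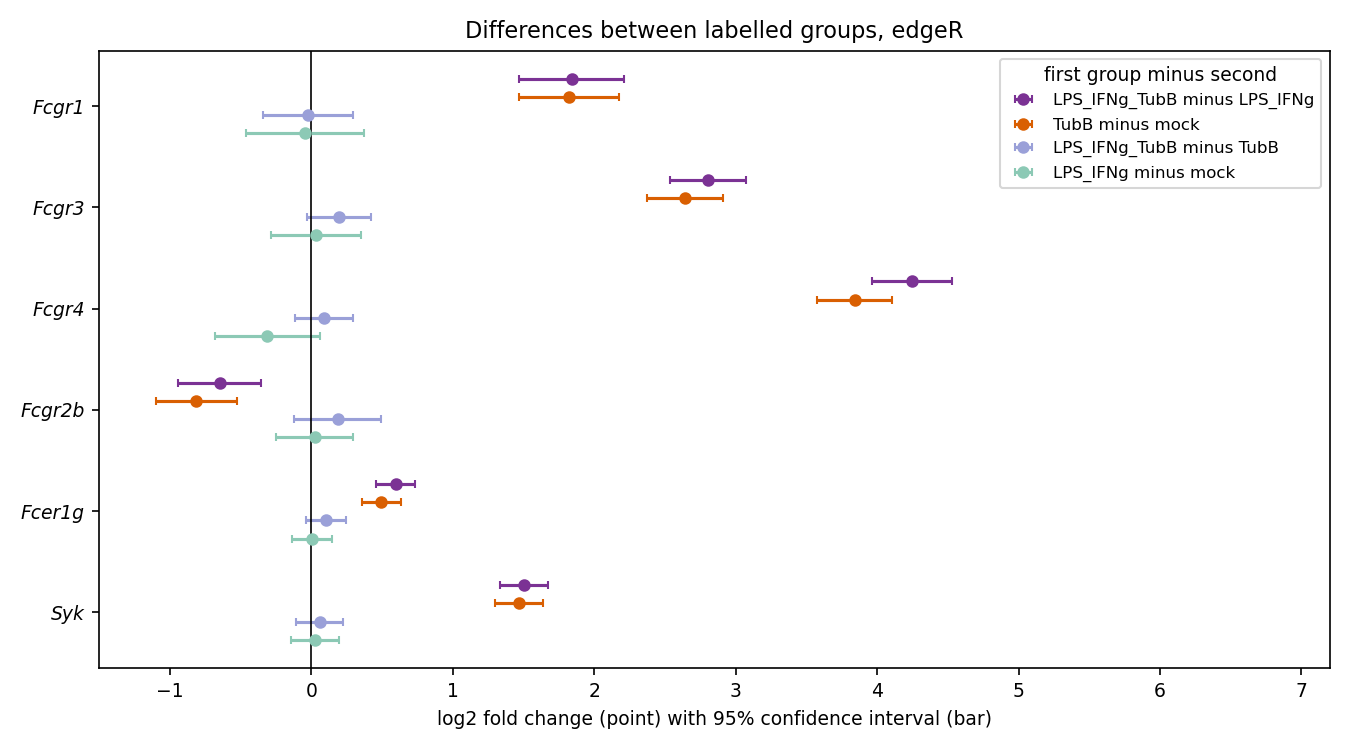
Log2 fold change (points) with its 95% confidence interval (bars) for each gene in 4 comparisons from edgeR, the first group of each minus the second. Fcgr4 is farthest to the right at 4.24 and 3.84, Fcgr2b alone is left of 0 in the comparisons of LPS_IFNg_TubB with LPS_IFNg and of TubB with mock, and the intervals for LPS_IFNg_TubB minus TubB and LPS_IFNg minus mock all include 0.

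The stimulus comparisons as labelled showed none of this. In LPS_IFNg minus mock edgeR called 0 of the 6 genes and 0% of all genes tested, with 247 genes at an unadjusted p under 0.05. The 95% interval of the difference was widest for Fcgr1, at -0.46 to 0.37, and ran to -0.68 for Fcgr4 (-0.31 ± 0.18). Fcgr4 was the only one of the 6 whose libraries did not overlap there, as for 30.6% of all genes. In LPS_IFNg_TubB minus TubB 0 of the 6 and 0% of all genes were called, with 269 at an unadjusted p under 0.05. Fcgr3 (0.19 ± 0.11) and Fcer1g (0.10 ± 0.07) did not overlap between these groups, as for 26.8% of all genes. The intervals of all 6 lay within -0.34 and 0.50. The interaction, the compound's difference under the stimulus minus that without it, as labelled, was called for 0 genes by edgeR (277 at an unadjusted p under 0.05). DESeq2, limma-voom and limma on the regularised log2 values also called 0 genes in each of these 3 comparisons. Its value for Fcgr4 was 0.40 ± 0.21, with an unadjusted p = 0.0623 and an adjusted p = 1 in edgeR, and it lay between 0.02 and 0.16 for the other 5.

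The make-up of the receptor transcripts differed along with their levels. The 3 activating receptors summed, divided by Fcgr2b, per kilobase, gave ratios of 13.2 and 9.10 in LPS_IFNg_TubB, 14.3 and 9.39 in TubB, 0.549 and 0.637 in LPS_IFNg, and 0.666 and 0.660 in mock. The ratio was above 1 in 4 libraries and below 1 in the other 4, with no overlap. Whether it lay below 1 depended on the gene lengths. The deposited lengths were 1547 bases for Fcgr2b and 2904 for Fcgr3, and the longest coding GENCODE transcripts 3544 and 1347. With these the ratios were 37.8 and 26.1 in LPS_IFNg_TubB, 40.3 and 26.7 in TubB, 1.72 and 2.13 in LPS_IFNg, and 2.01 and 2.15 in mock, all above 1 and again with no overlap between the 2 sets of labels. The shares below use the deposited lengths. Fcgr2b made up 8.47% ± 2.02 of the 4 receptors in LPS_IFNg_TubB, 8.07% ± 2.20 in TubB, 62.8% ± 2.46 in LPS_IFNg and 60.1% ± 0.162 in mock. Among the activating receptors, Fcgr4 held 71.8% ± 0.833 in LPS_IFNg_TubB, 72.5% ± 1.54 in TubB, 43.7% ± 0.830 in LPS_IFNg and 49.0% ± 8.12 in mock. With GENCODE lengths Fcgr3 and not Fcgr4 was the largest of the 3 in LPS_IFNg and mock. Fcgr3 then had 17.0 ± 3.63 and 16.6 ± 3.14 CPM per kb there, and Fcgr4 9.46 ± 0.776 and 11.7 ± 2.12. The gamma chain exceeded the activating receptors in every library, by a ratio of 3.52 ± 0.132 in LPS_IFNg_TubB, 3.53 ± 0.329 in TubB, 26.9 ± 0.989 in LPS_IFNg and 24.3 ± 0.280 in mock. With GENCODE lengths it lay between 2.59 and 2.91 in LPS_IFNg_TubB and TubB and between 16.6 and 19.4 in LPS_IFNg and mock, and without division by length between 1.30 and 1.45 and between 7.58 and 8.59. These ratios rest on the same counts as the tests above and carry no test of their own. RNA ratios do not measure receptors at the cell surface.

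**Figure D3:**
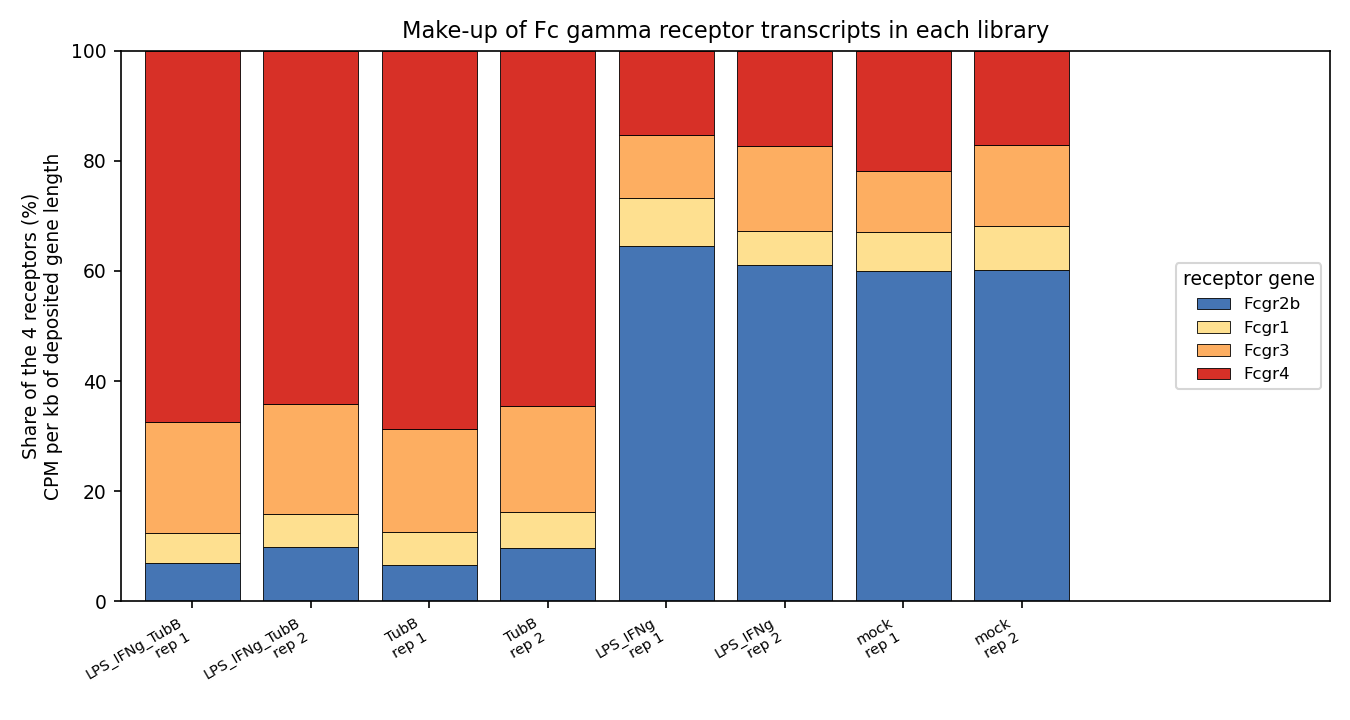
Share of each receptor gene in the sum of the 4 receptors, in CPM per kb of the deposited gene length, on which the shares depend, as stacked bars for each library. Fcgr2b takes 6.52% to 9.90% in the 4 libraries labelled LPS_IFNg_TubB or TubB and 60.0% to 64.6% in the 4 labelled LPS_IFNg or mock, and Fcgr4 is the largest part of the bars in which Fcgr2b is small.

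Upstream of Syk, Src-family kinases phosphorylate the gamma chain. The counts below stand beside the 51.2% of all genes called in either comparison of the compound as labelled, close to equal parts higher and lower. Of 7 tested genes of a list of 12 (these kinases and their control), 4 were higher and 0 lower in TubB than in mock, with a median log2 difference of 0.77, beside a median of -0.01 over all genes tested. Src had 263 CPM in TubB and 82.7 in mock (1.66 ± 0.10). Lyn, named after its values were seen, had 435 CPM in TubB and 255 in mock (0.77 ± 0.07). In LPS_IFNg_TubB against LPS_IFNg 5 were higher and 0 lower, with Src at 1.66 ± 0.11.

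Downstream of Syk, 22 of 26 adaptors and effectors were tested. In both comparisons of the compound as labelled 11 were higher and 3 lower, beside 51.2% of all genes called. Lcp2 (SLP-76, an adaptor that gathers phospholipase C gamma and Vav) had 432 CPM in TubB and 166 in mock (1.38 ± 0.07), and Vav1, a Rac exchange factor, 457 in TubB and 233 in mock (0.97 ± 0.07). Plcg1 had 10.0 CPM in TubB and 18.8 in mock (-0.86 ± 0.23), and Card9, which links Syk to NF-κB, 46.5 in TubB and 65.5 in mock (-0.48 ± 0.12). In LPS_IFNg_TubB against LPS_IFNg, Lcp2 was at 1.43 ± 0.07, Bcl10, a partner of Card9, at 0.98 ± 0.13, Plcg1 at -0.73 ± 0.24 and Card9 at -0.71 ± 0.13. The second count of 3 lower was 1 without LPS_IFNg replicate 2 and 1 without LPS_IFNg_TubB replicate 1. Median differences were 0.37 and 0.45. Plcg2 and Btk, named after their values were seen, had 0.01 ± 0.08 and -0.21 ± 0.11 in TubB minus mock and were not called.

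On the inhibitory side, 9 of 10 listed phosphatases and adaptors were tested. Their counts stand beside 51.2% of all genes called in either comparison of the compound as labelled. In TubB against mock 5 were higher and 0 lower. Ubash3b, a phosphatase that acts on Syk, was at 272 CPM in TubB and 84.5 in mock (1.69 ± 0.08). The ubiquitin ligase Cblb was at 95.6 in TubB and 53.6 in mock (0.82 ± 0.11). Inpp5d, the lipid phosphatase SHIP1 that Fcgr2b recruits, was not called there (-0.11 ± 0.08). The phosphatases Ptpn6 (0.06 ± 0.07) and Ptpn11 (-0.05 ± 0.08), named after their values were seen, were not called either. In LPS_IFNg_TubB against LPS_IFNg 5 were higher and 1 lower. Ubash3b was at 1.82 ± 0.08 and Cblb at 0.82 ± 0.12, while Inpp5d was the lower one, at -0.21 ± 0.08. That 1 call was lost in DESeq2 and without any 1 of the 4 libraries compared. Of the other ITIM receptors, 15 of 16 were tested, 5 higher and 3 lower in TubB against mock, and 4 higher and 3 lower in LPS_IFNg_TubB against LPS_IFNg. With 8 and 7 of 15 called, they were near the 51.2% of all genes. Clec12a, an inhibitory C-type lectin receptor, had 117 CPM in TubB and 23.8 in mock (2.29 ± 0.12) and Cd300lf 100.4 in TubB and 29.3 in mock (1.77 ± 0.11). The C-type lectin receptor Clec4a2 was at 5.996 CPM in TubB and 10.5 in mock (-0.83 ± 0.27) and Cd200r1, an inhibitory receptor kept in this list although it lacks a classical ITIM, at 22.3 in TubB and 31.3 in mock (-0.49 ± 0.15). The count of 3 lower in TubB was 1 in DESeq2, 0 without mock replicate 1 and 0 without TubB replicate 2. In LPS_IFNg_TubB it was 1 without LPS_IFNg replicate 1 and 1 without LPS_IFNg_TubB replicate 1. The median over the ITIM receptors was 0.18 in LPS_IFNg_TubB minus LPS_IFNg and 0.14 in TubB minus mock.

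Among 20 other ITAM adaptors and Syk-coupled receptors, 10 were tested. Of these, 5 were higher and 1 lower in both comparisons of the compound as labelled, beside 51.2% of all genes called. Clec4d, a lectin receptor that signals through the gamma chain, had 772 CPM in TubB and 423 in mock (0.87 ± 0.11), Cd300ld 78.7 in TubB and 38.1 in mock (1.04 ± 0.11), and Cd300lb 89.4 in TubB and 135 in mock (-0.60 ± 0.09). Tyrobp, the sister adaptor DAP12 that also carries an ITAM, was named after its values were seen. It had 268 CPM in TubB and 271 in mock (-0.02 ± 0.08, not called) and 268 in LPS_IFNg_TubB and 248 in LPS_IFNg (0.11 ± 0.08, not called). A list of 16 other Fc receptors, their partners and further uptake receptors had 5 tested genes. In both comparisons 4 were higher and 1 lower, beside 51.2% of all genes called, close to equal parts higher and lower. Of the 4, Cd36 (a scavenger receptor, 1.73 ± 0.08 in TubB minus mock) and Lgals3 (a galectin, 1.04 ± 0.13) are not Fc receptors, and both were named after their values were seen. Trim21, the cytosolic antibody receptor, had 31.4 CPM in TubB and 3.50 in mock (3.15 ± 0.26). B2m, the light chain of the neonatal Fc receptor and of class I molecules, had 1356 in TubB and 318 in mock (2.09 ± 0.08). Fcgrt, the gene of the neonatal receptor's own chain, was too low to be tested, at 1.55 CPM in TubB and 0.996 in mock. Fcrl1 was at 34.3 CPM in TubB and 47.4 in mock (-0.46 ± 0.14), a call lost without mock replicate 2. In LPS_IFNg_TubB minus LPS_IFNg it was at -0.43 ± 0.15, a call lost in DESeq2, without LPS_IFNg replicate 1 and without either LPS_IFNg_TubB library.

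For the machinery of engulfment, 27 of 28 genes of the phagocytic cup and actin were tested, 14 higher and 1 lower in TubB against mock and 13 higher and 2 lower in LPS_IFNg_TubB against LPS_IFNg. With 15 of 27 called in each, their total was near the 51.2% of all genes, but their split by direction was not. Of all genes, 26.3% were higher and 24.9% lower in the first comparison, and 26.2% and 25% in the second. Most differences in the list were small, with medians of 0.21 and 0.12. Nckap1l, a subunit of the WAVE complex of blood cells, had 720.4 CPM in TubB and 334 in mock (1.11 ± 0.07), Myo10, a filopodial myosin, 197 in TubB and 111 in mock (0.82 ± 0.09), and Dock1, a Rac exchange factor, 31.0 in TubB and 50.1 in mock (-0.68 ± 0.13). The 2 lower in LPS_IFNg_TubB were Dock1 (-0.46 ± 0.13) and Myo1f (-0.24 ± 0.09), and 1 of them was called in DESeq2, without LPS_IFNg replicate 2 and without LPS_IFNg_TubB replicate 1.

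Of 14 transcription factors of myeloid and interferon signalling 13 were tested. Their counts stand beside 51.2% of all genes called in both comparisons below, close to equal parts higher and lower. In TubB against mock 11 were higher and 0 lower, with a median of 1.01, and 1 was lower in limma on the regularised log2 values and without TubB replicate 2. Irf1 had 703 CPM in TubB and 6.66 in mock (6.71 ± 0.11) and Stat2 238 in TubB and 17.4 in mock (3.76 ± 0.22). Spi1, named after its values were seen as the gene of PU.1, had 394 in TubB and 307 in mock (0.36 ± 0.08). In LPS_IFNg_TubB against LPS_IFNg 11 were higher and 1 lower, with Irf1 at 7.01 ± 0.12, Stat2 at 3.63 ± 0.23 and Tfeb at -0.68 ± 0.25. The call of Tfeb was lost in DESeq2, without LPS_IFNg replicate 2 and without either LPS_IFNg_TubB library. Irf1 is also among the 12 genes that check the stimulus.

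**Figure D4:**
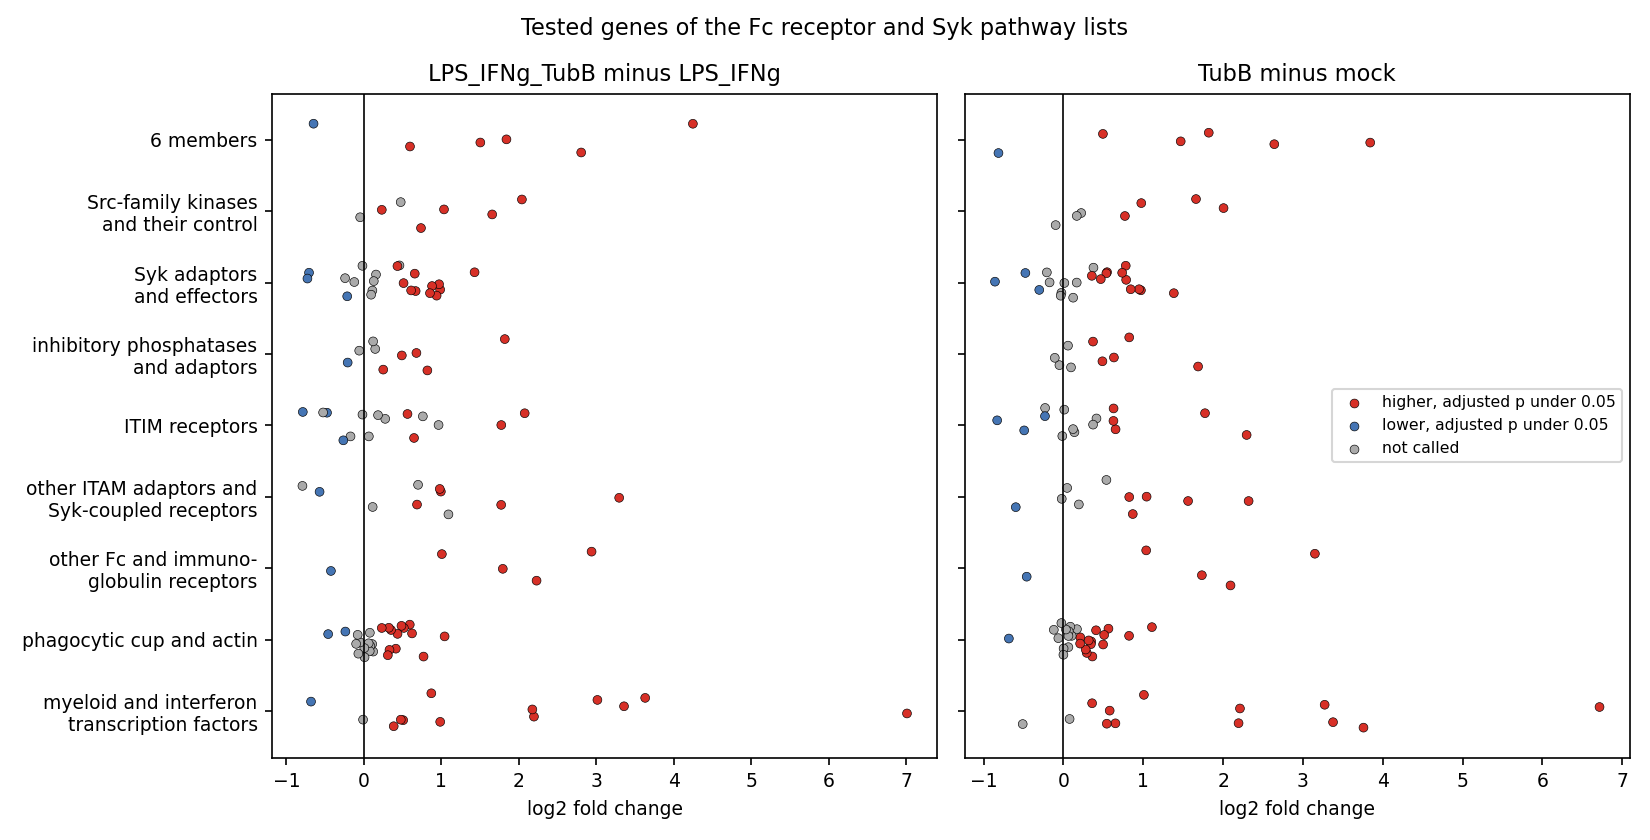
Log2 fold change of the 6 genes and of each tested gene of 8 pathway lists (points, spread vertically at random), in LPS_IFNg_TubB minus LPS_IFNg and in TubB minus mock, coloured by the edgeR call. Most points of the phagocytic cup list lie near 0, while Fcgr4 and several transcription factors lie above 3.

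Markers of other cells were read beside these groups. Of 8 neutrophil markers 4 had counts, S100a9, Mpo, Ly6g and Ltf being at 0 in every library. Their summed level was 43.3 to 46.8 CPM in LPS_IFNg_TubB, 38.3 to 57.1 in TubB, 6.63 to 7.24 in LPS_IFNg and 7.64 to 8.23 in mock, carried by S100a8. Of 6 dendritic cell markers 3 had counts, with Flt3, Siglech and Cd209a at 0. Their sums were 43.5 to 46.6 CPM in LPS_IFNg_TubB, 40.1 to 54.5 in TubB, 41.6 to 42.8 in LPS_IFNg and 40.4 to 43.7 in mock. The 2 tested ones moved in opposite directions, Xcr1 with 15.2 CPM in TubB and 0.430 in mock (11.8 in LPS_IFNg_TubB and 0.170 in LPS_IFNg) and Itgax with 31.6 in TubB and 41.3 in mock (32.9 in LPS_IFNg_TubB and 41.5 in LPS_IFNg). The part of these markers in the results was not tested. The mast cell and basophil, B cell, and T and NK cell markers summed to at most 0.659, 0.628 and 0.170 CPM in any library.

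On chromosome 1, Fcgr2b, Fcgr4, Fcgr3 and Fcer1g lie in that order with other genes between and around them. Within 100 kb of any of these 4, 52 other genes are annotated and 13 of them were tested. In TubB against mock 2 of the 13 were higher, B4galt3 (0.42 ± 0.14) and Dedd (0.48 ± 0.19), and 1 was lower, Dusp12 (-0.64 ± 0.19), beside 51.2% of all genes tested. The nearest gene to Fcgr2b among the 4 is Fcgr4, 42855 bases away, and it moved the opposite way. Fcgr3 lies 21408 bases from Fcgr4. Around Fcgr1 on chromosome 3, Bola1 (-0.99 ± 0.20) and H2bc21 (-0.68 ± 0.25) were lower.

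**Figure D5:**
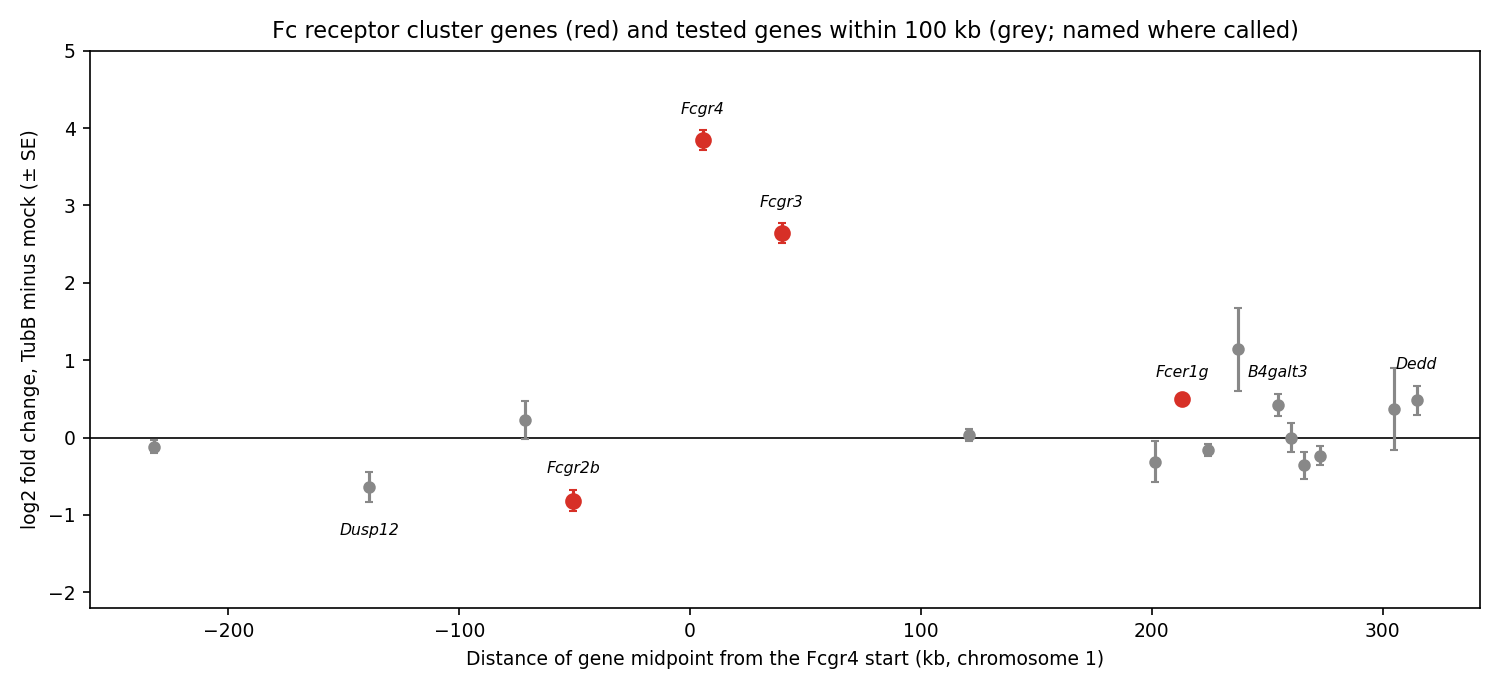
Log2 fold change of TubB minus mock (± SE) against the distance of each gene's midpoint from the Fcgr4 start, in kb, for the 4 Fc receptor genes of chromosome 1 (red) and the 13 tested genes within 100 kb of them (grey, named where called). Fcgr4 at 3.84 and Fcgr3 at 2.64 stand above every grey point.

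The genes whose log2 CPM followed each of the 6 most closely, by the root mean square difference of centred values over 8 libraries, were searched among 8567 genes. For Fcgr1 the closest was Prkg2 (0.07), for Fcgr3 Adgre1 (0.07), for Fcgr4 Tmem132a (0.17), for Fcgr2b Gpr65 (0.06), for Fcer1g Atxn7l3 (0.03) and for Syk Rasgef1b (0.04). Adgre1 encodes the macrophage antigen F4/80. It had 81.4 CPM in TubB and 12.4 in mock (2.71 ± 0.15). That this lies close to the difference of Fcgr3 follows from the search, which picked genes by likeness over these same libraries. Within the 6, the closest pair was Fcgr1 and Syk (0.24) and the most distant Fcgr2b and Fcgr4 (2.40).

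Fcgr3 and Fcgr2b encode receptors with very similar outer parts, and a read that fits both genes is ambiguous. Of the distinct stretches of 50 bases in their transcripts, 166 were shared, 10.2% of those of Fcgr3 and 4.48% of those of Fcgr2b. At 100 bases the shares were 2.7% and 1.14%. Fcgr1, Fcgr4, Fcer1g and Syk shared 0 with the others. The counting was not by strand, and 34 of the 2904 exon bases of Fcgr3 overlap small RNA genes, with 0 for the other 5 genes.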

How the data were processed

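RNA of 8 libraries was selected for poly(A) and sequenced without strand, per the labels' protocols. Reads were aligned with STAR 2.7.0 per the submitters' processing notes, and counted as pairs over exons by gene with featureCounts 2.0.1 on the RefSeq annotation of GRCm38.p6 per the file headers. No option for strand or multi-mapped reads appears there. The values used were the authors' deposited raw counts, the gene length in the same table, and, as an alternative, the authors' deposited regularised log2 values. Columns were matched to libraries by the number at the head of each title.

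Library totals were 4767894 to 8413834 counts, and the fewest counts of any of the 6 genes in a library were 55. Counting error covers reads and not molecules, since no molecular identifiers were used. edgeR 4.0.16 (R 4.3.3) was run on all 8 libraries by its quasi-likelihood test with TMM factors, robust estimation, a model of group alone and filterByExpr (at least 10 counts, at least 15 in total), with 4 residual degrees of freedom before sharing across genes. P-values were adjusted by Benjamini-Hochberg over 11081 genes and called under 0.05. CPM are TMM-scaled. CPM per kb divide by the deposited gene length. SEs were derived from each log2 fold change and its F value. The fit was also run on simulated counts in which a small part of the genes was shifted. A difference over as many genes as were called here was not simulated.

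The members and lists were chosen with earlier results of these data known. From each list, up to 2 called genes with the largest rise and 2 with the largest fall were named if they averaged 3 log2 CPM or more. Some genes that this rule names are not reported here. Pattern likeness was the root mean square difference of centred log2 CPM (prior count 2). Shared stretches and alternative gene lengths came from GENCODE transcripts of GRCm38. Promoters came from RefSeq. Alternatives were DESeq2 1.42.0, limma-voom (limma 3.58.1), limma on the regularised log2 values, RLE factors, no filter, a filter of 1 CPM in 2 libraries, a block for replicate number, a fit of only 2 groups, and leaving out each library.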

Additional observations from a re-analysis of the deposited data

How the results depend on the processing

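Each of the 6 genes kept its direction and its call in LPS_IFNg_TubB minus LPS_IFNg, LPS_IFNg_TubB minus mock and TubB minus mock under all 17 alternatives, among them RLE factors, other filters, DESeq2, limma-voom and each library left out. The highest adjusted p of these was that of Fcgr2b without LPS_IFNg_TubB replicate 1, at 0.0199 against LPS_IFNg and 0.0240 against mock. In TubB minus mock it was 0.000385. The regularised log2 values, which are shrunken by construction, gave smaller differences under limma. TubB minus mock was then 2.39 for Fcgr4, 1.66 for Fcgr3, 1.06 for Fcgr1, 0.97 for Syk, 0.33 for Fcer1g and -0.51 for Fcgr2b. With 1 library left out, 6 to 6 of the 6 genes were called in each of these comparisons, and 4596 to 5857, 4680 to 5964 and 4535 to 5752 genes in all, in the order above. In LPS_IFNg minus mock, LPS_IFNg_TubB minus TubB and the interaction the counts were 0 to 0, for the 6 genes and for all genes.

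The labels do not tie replicate numbers to a shared batch. Deviations of same-numbered libraries from their group means correlated at 0.15 between LPS_IFNg_TubB and TubB and at -0.05 to 0.09 over the other 5 pairs of groups, and the closest pairs of libraries shared a number. The replicate block changed no call of the 6 genes. With the block and the compared groups only, chosen after seeing the data, 5 genes of all tested were called in LPS_IFNg_TubB minus TubB, against 0 without it. The cause was not tested. With 2 libraries a group, a missing call does not show equal levels.

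With the longest coding GENCODE transcript as gene length, chosen after seeing the data, the log2 ratio of the summed activating receptors to Fcgr2b turned to 0.94 in LPS_IFNg and 1.06 in mock, against -0.76 and -0.59 with the deposited lengths. The lengths differ most for Fcgr2b and Fcgr3. Without division by length it was -0.30 and -0.20. In LPS_IFNg_TubB it was 4.97, 3.45 and 3.59 and in TubB 5.04, 3.54 and 3.66 with GENCODE, deposited and no lengths.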
